A study of Homo sapiens with 12 samples.

Results

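PDGFRA, the gene of the alpha receptor for platelet-derived growth factor, lies in band q12 of the long arm of chromosome 4. It was followed here together with AC098587.1, FIP1L1, CHIC2, LNX1, SCFD2, KIT, KDR, EXOC1 and CLOCK, which lie around it. The members are the 10 entries, of 64253 in the expression table, that carry these names. They were chosen by their RPKM values in earlier results of the same data, which showed PDGFRA and AC098587.1 to be nearly silent in the libraries of PRKCI_KD and NT1 and abundant in those of SOX2_KD and NT2. That difference between the pairs of groups is therefore given as a description with no test, and the responses to each knockdown within its own pair are what was tested.

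PDGFRA is a receptor tyrosine kinase of the cell surface. Binding of PDGF dimers brings receptor molecules together, they phosphorylate each other, and adaptor proteins then carry the signal to the RAS and PI3-kinase pathways. KIT, the receptor for stem cell factor, and KDR, the main signalling receptor for VEGF-A, are related kinases encoded by the next receptor genes along the chromosome. Amplification of this stretch with PDGFRA, KIT and KDR is known from gliomas and from some lung cancers, and an internal deletion that joins FIP1L1 to PDGFRA is the classic lesion of a myeloid neoplasm with eosinophilia.

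RNA was sequenced from cells labelled H1299 in every library, a line of human non-small cell lung cancer cells, grown as spheroids. The groups were PRKCI_KD (PRKCI, a kinase of cell polarity, silenced) with its control NT1, and SOX2_KD (SOX2, a stem cell transcription factor, silenced) with its control NT2, with 3 libraries in each. NT1 and NT2 are non-targeting controls. How many hairpins were used for a target, and whether replicates came from separate cultures, is not stated in the labels, so p-values measure the spread between these libraries, which may be technical. PRKCI_KD and NT1 were read on lane 8 of one flow cell and SOX2_KD and NT2 on lane 7 of another. The first of these pairs is called the PRKCI pair and the second the SOX2 pair, and flow cell, culture and pair cannot be told apart. Whether both pairs came from the same stock or line was not tested, and it cannot be told apart from flow cell either.

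The values were RPKM, in which the reads of an entry are divided by its length and by the read total of the library, so that levels can be compared between genes. The recovered read totals were 87.42 to 94.92 M in PRKCI_KD, 94.96 to 118.96 M in NT1, 82.77 to 124.3 M in SOX2_KD and 77.1 to 109.31 M in NT2. Correlations of log2(RPKM + 1) between libraries across entries were 0.964 to 0.995 within the PRKCI pair and 0.989 to 0.997 within the SOX2 pair, against 0.826 to 0.838 between the pairs. The pairs therefore stand far apart in the whole transcriptome. The targeted gene PRKCI was at 2.50 ± 0.08 RPKM in PRKCI_KD and 14.8 ± 1.40 RPKM in NT1 (SD, n = 3; adjusted p = 1.52e-08, limma), and SOX2 was at 0.56 ± 0.04 RPKM in SOX2_KD and 1.48 ± 0.07 RPKM in NT2 (adjusted p = 2.19e-04, limma). SOX2 was also lower in PRKCI_KD, at 2.02 ± 0.25 RPKM, than in NT1, at 3.01 ± 0.12 RPKM (log2 -0.41, adjusted p = 2.51e-04, limma). Unlike the members, SOX2 did not resolve into whole reads in every library at any length tried. The keratins KRT8 and KRT18 of simple epithelia were abundant in all groups, at 36.3 RPKM or more, while the epithelial adhesion genes EPCAM and CDH1 stayed at or below 0.304 RPKM.

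The sequences at the starts of PDGFRA and FIP1L1, the members that differed most between the pairs apart from AC098587.1, are shown so that the reader can see what lies upstream of each. They are the RefSeq promoters of GRCh38.p14, 250 bases before and 50 after an annotated start on the plus strand. PDGFRA has a pair of them, at chr4:54229043-54229342 and chr4:54233710-54234009, and that of FIP1L1 is at chr4:53377391-53377690. Capitals mark a match to ACAAAG or ACAATG, the core motifs bound by SOX proteins, searched on both strands.
PDGFRA, first start: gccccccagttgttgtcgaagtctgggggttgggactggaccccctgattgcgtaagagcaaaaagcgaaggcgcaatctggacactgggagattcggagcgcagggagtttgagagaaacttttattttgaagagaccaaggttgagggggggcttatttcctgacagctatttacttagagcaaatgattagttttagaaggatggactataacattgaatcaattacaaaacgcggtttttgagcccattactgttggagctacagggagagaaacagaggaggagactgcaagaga
PDGFRA, second start: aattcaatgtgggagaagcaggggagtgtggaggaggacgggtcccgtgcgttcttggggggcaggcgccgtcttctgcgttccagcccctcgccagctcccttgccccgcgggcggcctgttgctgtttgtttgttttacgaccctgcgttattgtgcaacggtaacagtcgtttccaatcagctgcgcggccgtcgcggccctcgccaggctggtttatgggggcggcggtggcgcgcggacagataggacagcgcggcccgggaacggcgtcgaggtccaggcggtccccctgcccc
FIP1L1: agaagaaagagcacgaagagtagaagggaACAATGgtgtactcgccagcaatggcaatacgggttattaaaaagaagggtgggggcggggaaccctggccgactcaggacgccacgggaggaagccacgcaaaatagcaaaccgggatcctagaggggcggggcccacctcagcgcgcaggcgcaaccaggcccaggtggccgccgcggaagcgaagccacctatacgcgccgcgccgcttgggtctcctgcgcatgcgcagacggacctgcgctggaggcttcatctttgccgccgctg

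The first PDGFRA window had 47.0% G and C with 8 CpG dinucleotides, and the second had 66.7% with 32. The median over all RefSeq promoters was 58.7%. Neither PDGFRA window held either motif, and the FIP1L1 window held ACAATG once. Of the 11 promoters of the 9 members found in the RefSeq table, 4 held a match, those of FIP1L1, LNX1, KDR and EXOC1. For comparison, 24.5% of all 35116 promoters of that length held at least 1 match. The motif is short, and its presence or absence in these windows says nothing about binding by SOX2.

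The entries of FIP1L1 and PDGFRA are not independent in their annotation. GENCODE 29 lists a read-through gene, AC058822.1, of 24 exons on the plus strand, 12 within FIP1L1 and 12 within PDGFRA. The join between its FIP1L1 and PDGFRA exons is shown because a read across it would belong to both genes. The last 40 bases of the FIP1L1 exon at chr4:53425872-53425965 are in lower case and the first 40 of the PDGFRA exon at chr4:54274925-54274973 in capitals.
Annotated FIP1L1 to PDGFRA join: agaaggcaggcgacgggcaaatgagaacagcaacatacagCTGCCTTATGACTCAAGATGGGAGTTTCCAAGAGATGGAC

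The length behind the deposited FIP1L1 values was 7170 bases. FIP1L1 alone has 5636 exon bases in GENCODE 29, and FIP1L1 with AC058822.1 has 7169. The table has no entry named AC058822.1, and 7 of 9 placed members had a recovered length exactly 1 base above their own exon bases, as FIP1L1 has above the combined model. Of the bases of AC058822.1, 1533 lie in PDGFRA exons, which is 15.8% of the exon bases of PDGFRA. The FIP1L1 entry can thus include PDGFRA sequence, and its values cannot be assigned to FIP1L1 transcripts alone. FIP1L1 also shares 1560 exon bases with LNX1 on the opposite strand, 27.2% of the exon bases of LNX1, and the library kit does not mark strand.

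PDGFRA (chromosome 4, 54229097 to 54298247, plus strand, GRCh38) was at 0.022, 0.012 and 0.026 RPKM in PRKCI_KD and at 0.044, 0.064 and 0.044 RPKM in NT1. It was at 111, 120 and 120.0 RPKM in SOX2_KD, and at 133, 154 and 151 RPKM in NT2. In reads, this was 20, 11 and 22 in PRKCI_KD and 51, 59 and 42 in NT1, against 134399, 107929 and 96644 in SOX2_KD and 118505, 163476 and 113274 in NT2. Every library of the SOX2 pair lay above every library of the PRKCI pair, and within each pair the knockdown libraries lay below their controls. The mean over the SOX2 pair was 3726 times that over the PRKCI pair. Among 19777 entries tested, PDGFRA had the third lowest log2 difference between the pairs (rank 3), at -6.99.

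AC098587.1 is a short entry of 69 bases, less than a read of 101 bases, listed directly after PDGFRA in the table. GENCODE 29 gives that name to another locus of 540 exon bases, so its own coordinates are not given here. It had 0, 0 and 2 reads in PRKCI_KD and 1, 1 and 0 reads in NT1, against 2977, 2225 and 2040 reads in SOX2_KD and 2741, 3449 and 2470 reads in NT2. Its RPKM was the highest of the members in the SOX2 pair, at 347, 349 and 357 RPKM in SOX2_KD and 433, 457 and 464 RPKM in NT2. Division by a length below that of a read raises RPKM, so its level cannot be compared with that of longer entries. For every 100 PDGFRA reads there were 2.22, 2.06 and 2.11 AC098587.1 reads in SOX2_KD and 2.31, 2.11 and 2.18 in NT2, so the entries kept nearly 1 ratio in these 6 libraries. Whether they share reads was not tested.

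FIP1L1, a subunit of the complex that cleaves and polyadenylates mRNA (53377643 to 53460861, plus strand), was expressed in all libraries. It was at 5.48, 6.06 and 5.67 RPKM in PRKCI_KD and 5.36, 5.31 and 5.25 RPKM in NT1. It was at 57.1, 59.1 and 59.8 RPKM in SOX2_KD and 66.9, 74.7 and 72.3 RPKM in NT2. The mean was 11.8 times higher in the SOX2 pair, and the log2 difference of -3.33 was rank 67 from the lowest of 19777. There were 37.9, 36.2 and 36.7 FIP1L1 reads per 100 PDGFRA reads in SOX2_KD, and 37.1, 35.8 and 35.3 in NT2, a steady ratio across libraries. In the PRKCI pair FIP1L1 had at least 6129 reads for every 100 of PDGFRA.

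**Figure D1:**
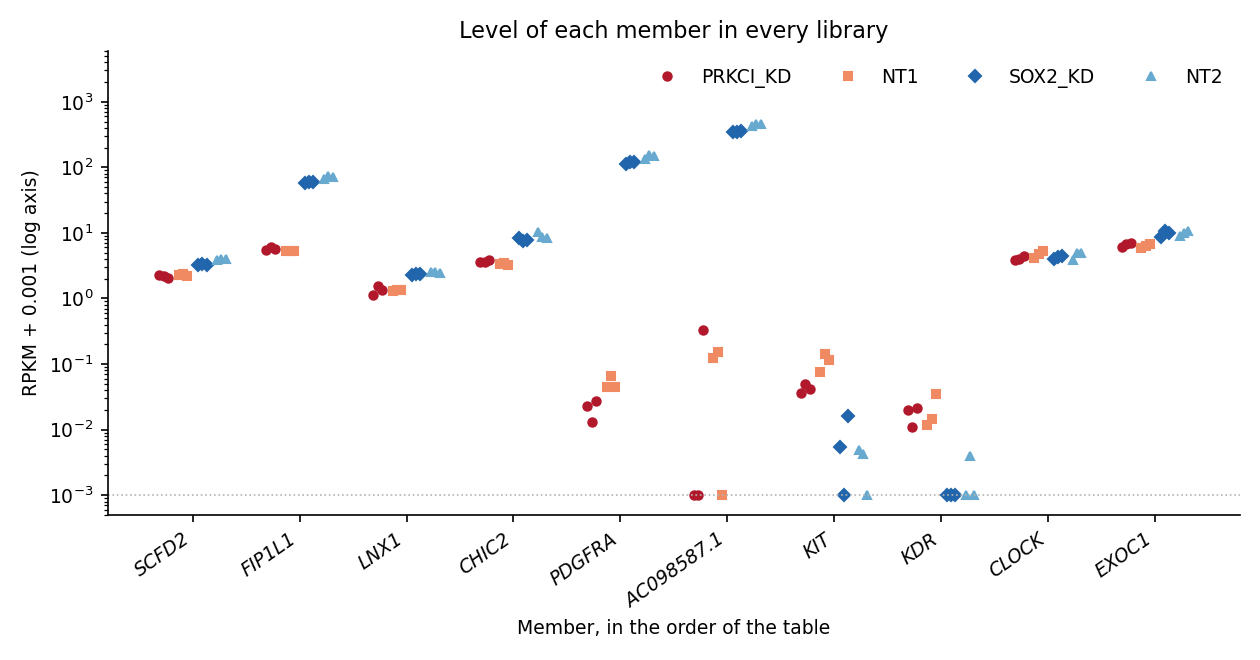
RPKM plus 0.001, on a log axis, of the 10 members in each of the 12 libraries, with 3 points per group and genes in the order of the table. PDGFRA and AC098587.1 sit above 100 RPKM in SOX2_KD and NT2 and below 1 RPKM in PRKCI_KD and NT1, FIP1L1 differs by about an order of magnitude, and CLOCK lies at the same height in all groups. The dotted line marks values of 0.

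The other protein-coding neighbours differed far less. CHIC2, a small membrane protein of vesicle traffic (54009789 to 54064690, minus strand), was at 3.71 ± 0.16 RPKM in PRKCI_KD, 3.33 ± 0.10 RPKM in NT1, 7.80 ± 0.38 RPKM in SOX2_KD and 9.03 ± 0.98 RPKM in NT2 (SD, n = 3 each). Its mean was 2.39 times higher in the SOX2 pair. LNX1, an E3 ubiquitin ligase that acts on NUMB (53459301 to 53701405, minus strand), was at 1.34 ± 0.19 RPKM in PRKCI_KD, 1.33 ± 0.04 RPKM in NT1, 2.35 ± 0.04 RPKM in SOX2_KD and 2.47 ± 0.05 RPKM in NT2. SCFD2, a relative of the Sec1 and Munc18 proteins of membrane fusion (52872982 to 53366075, minus strand), was at 2.17 ± 0.13 RPKM in PRKCI_KD, 2.28 ± 0.06 RPKM in NT1, 3.25, 3.36 and 3.23 RPKM in SOX2_KD and 3.92, 4.05 and 4.04 RPKM in NT2. In all 3 genes each library of the SOX2 pair lay above each library of the PRKCI pair. The share of all entries that separate in this way was not counted. Between the pairs, 84.3% of all entries tested were called by limma, 39.2% of them all being lower in the PRKCI pair.

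EXOC1, a subunit of the exocyst that tethers secretory vesicles (55853616 to 55905034, plus strand), was at 6.60 RPKM in PRKCI_KD, 6.30 RPKM in NT1, 9.73 RPKM in SOX2_KD and 9.85 RPKM in NT2, a 1.52-fold difference between the pairs. CLOCK, a transcription factor of the circadian oscillator (55427903 to 55547138, minus strand), was at 3.81, 3.95 and 4.41 RPKM in PRKCI_KD and 4.14, 4.71 and 5.34 RPKM in NT1. It was at 3.94, 4.28 and 4.44 RPKM in SOX2_KD and 3.89, 4.86 and 4.86 RPKM in NT2. Its groups overlapped throughout.

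The related receptors KIT and KDR were close to silent in all 12 libraries and did not pass the level filter of 0.5 RPKM in 3 libraries. The other 8 members passed it, PDGFRA and AC098587.1 only through the SOX2 pair. KIT (54657918 to 54740715, plus strand) had 18, 26 and 20 reads in PRKCI_KD and 49, 75 and 62 reads in NT1, against 3, 0 and 7 reads in SOX2_KD and 2, 2 and 0 reads in NT2. KDR (55078259 to 55125595, minus strand) had 11, 6 and 11 reads in PRKCI_KD and 8, 8 and 21 reads in NT1, against no read in SOX2_KD and 0, 2 and 0 reads in NT2. These receptors thus had their few reads mainly in the PRKCI pair, the pair in which PDGFRA was lowest. From counting error alone, a gene with no read can still have a level up to that of 3 reads in a library.

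Within the SOX2 pair, the order of levels ran from PDGFRA and FIP1L1 to EXOC1, CHIC2, CLOCK, SCFD2 and LNX1, with KIT and KDR last. AC098587.1 had a higher RPKM than PDGFRA, but it is shorter than a read and is left out of this order. EXOC1 and CHIC2 overlapped in NT2, and SCFD2 overlapped CLOCK in NT2. In the PRKCI pair the order began with EXOC1, FIP1L1, CLOCK and CHIC2, and PDGFRA was among the lowest members. CLOCK and CHIC2 overlapped in PRKCI_KD, and CLOCK and FIP1L1 overlapped in NT1.

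Silencing SOX2 was accompanied by a lower level of PDGFRA, of the FIP1L1 entry and of SCFD2, while the other members were not called. PDGFRA was at 117 ± 5.19 RPKM in SOX2_KD and 146 ± 11.4 RPKM in NT2, a mean lower by 19.7% with no overlap between the groups. Its log2 difference was -0.31 (SE 0.06, adjusted p = 0.00935, limma). The FIP1L1 entry, which can include PDGFRA sequence, fell likewise, with a log2 difference of -0.28 (SE 0.05, adjusted p = 0.00931, limma). SCFD2 was at -0.22 (SE 0.05, adjusted p = 0.0133, limma). These 3 of the 8 members tested were lower and none was higher, beside 8.18% of all entries tested, 3.56% higher and 4.62% lower. PDGFRA and AC098587.1 entered the test only through their level in the SOX2 pair, on which they were chosen. Of the 6 members that reached the filter level in PRKCI_KD or NT1, 2 were called, FIP1L1 and SCFD2. Log2 differences of these 6 ran from -0.28 for FIP1L1 to -0.02 for EXOC1, beside a median of -0.016 over all entries.

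AC098587.1 had a log2 difference of -0.36 (SE 0.10) with no overlap between the groups, and its adjusted p of 0.0503 missed the threshold. Same-numbered libraries of the SOX2 pair deviated together, though only replicate 1 stood out from libraries of different numbers. With the replicate number as a block AC098587.1 passed, with adjusted p = 0.0367 (limma), or 0.0212 with a block within the pair alone. The block raised the number of entries called in SOX2_KD against NT2 to 3682, from 1618 without it. CHIC2 was lower in each SOX2_KD library than in each NT2 library, at -0.18 (95% interval -0.33 to -0.03), and its adjusted p of 0.127 missed the threshold. The differences of LNX1 (-0.05, interval -0.18 to 0.07), CLOCK (-0.08, interval -0.29 to 0.12) and EXOC1 (-0.02, interval -0.20 to 0.17) did not pass it either.

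The calls in the SOX2 pair are close to the threshold. With only the 6 libraries of the pair in the fit, PDGFRA had adjusted p = 0.0557. SCFD2 lost its call without NT2 replicate 2, NT2 replicate 3 or SOX2_KD replicate 3, with adjusted p between 0.0513 and 0.0634, and FIP1L1 lost its call after quantile normalization (adjusted p = 0.0671).

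In PRKCI_KD against NT1, 6 of the 8 members tested reached 0.5 RPKM. None of these 6 was called by limma, and 0 of them had an unadjusted p under 0.05. PDGFRA and AC098587.1 lay too near 0 in that pair to be called on this scale. Of all entries tested, 45.1% were called in that comparison, 18.1% higher and 27.0% lower. CHIC2 was at 0.12 on the log2 scale (95% interval -0.03 to 0.27) and FIP1L1 at 0.09 (interval -0.02 to 0.21). In both genes every PRKCI_KD library lay above every NT1 library, but the share of all entries that do so was not counted. CLOCK was at -0.18 (interval -0.38 to 0.03), with overlapping groups. PDGFRA and KIT were so low in this pair that log2(RPKM + 1) hardly registers them. On the RPKM scale the PRKCI_KD mean of PDGFRA was 0.393 times that of NT1 and the KIT mean 0.379 times, without overlap. The two-sided exact permutation test gave p = 0.1 for each, the smallest it can give with 3 libraries against 3.

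**Figure D2:**
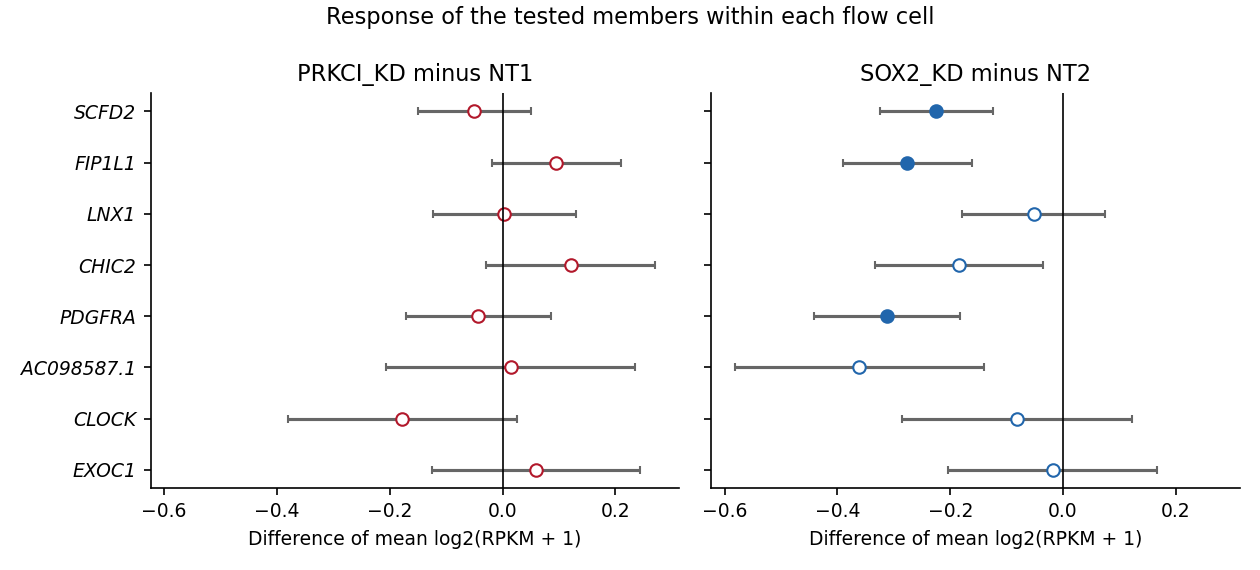
Difference of mean log2(RPKM + 1) between each knockdown and its control for the 8 members tested, with 95% intervals from limma; filled points passed the adjusted threshold of 0.05. PDGFRA (-0.31), FIP1L1 (-0.28) and SCFD2 (-0.22) were lower in SOX2_KD than in NT2, and none of the 6 members expressed in PRKCI_KD and NT1 was called there; PDGFRA and AC098587.1 lay near 0 in that pair.

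The responses to the knockdowns were also compared with each other. The FIP1L1 entry responded differently, with 0.37 log2 units between its responses (SE 0.07, adjusted p = 0.00379, limma). Its level was higher in PRKCI_KD libraries than in NT1 and lower in SOX2_KD libraries than in NT2. CHIC2 showed the same pattern, with a difference of 0.31 (SE 0.10, adjusted p = 0.0377). These are 2 of the 6 members expressed in both pairs, beside 26.1% of all entries called, 11.2% higher and 14.8% lower. The FIP1L1 entry can include PDGFRA sequence, and PDGFRA was nearly silent in the PRKCI pair alone. The responses of this entry therefore cannot be assigned to FIP1L1 transcripts alone. The entry kept its call without each library. CHIC2 lost it without any library of PRKCI_KD or NT1 and without SOX2_KD replicate 2 or 3, with values of 0.28 to 0.32. For PDGFRA this comparison does not show whether the responses differ. Its value of 0.27 is set by the scale, on which a gene near 0 RPKM in PRKCI_KD and NT1 cannot fall, and with a pseudocount of 0.1 in place of 1 it was -0.014.

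The surroundings of PDGFRA were read next, because the rule had not used the other entries there. Within 5 Mb of its midpoint lay 23 other entries that were tested. Between the pairs 20 of them were called, 6 higher and 14 lower in the PRKCI pair, or 87.0%. Of all entries, 84.3% were called, 45.0% higher and 39.2% lower. The median was -0.17, beside 0.048 over all entries. Within 2 Mb, 9 of 11 were called, 6 of them lower, and within 10 Mb 35 of 41, 15 of them lower. The share called in either direction was near that of the whole table at each width. The share called lower was 54.5% within 2 Mb, 60.9% within 5 Mb and 36.6% within 10 Mb, beside 39.2% of all entries. Within the SOX2 pair only 1 of the 23, CEP135, was called (-0.34, adjusted p = 0.0285), or 4.35%. In PRKCI_KD against NT1, 2 rose and 8 fell, or 43.5%.

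The nearest entries on each side gave a mixed picture. Before the members lay DANCR, a long non-coding RNA (-0.91), which hosts MIR4449 (-0.17, not called), then USP46-AS1 (-1.90), antisense to the deubiquitinase gene USP46 (-0.74), and SGCB, a subunit of the sarcoglycan complex (-0.15). Beyond KDR lay SRD5A3, a polyprenol reductase of protein glycosylation (-0.31), its antisense RNA SRD5A3-AS1 (-0.14), TMEM165, a Golgi protein (-0.77), NMU, the neuropeptide neuromedin U (0.97), and RNU6-652P, a small nuclear RNA pseudogene (0.58). All these are log2 differences of the PRKCI pair minus the SOX2 pair, and none of them approached the -3.33 of FIP1L1 or the -6.99 of PDGFRA. An entry and its antisense partner cannot be separated without strand. DCUN1D4 (-1.89), PAICS (-1.24) and REST (0.96), which are named in the plot of the neighbourhood, were chosen after their values were seen.

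**Figure D3:**
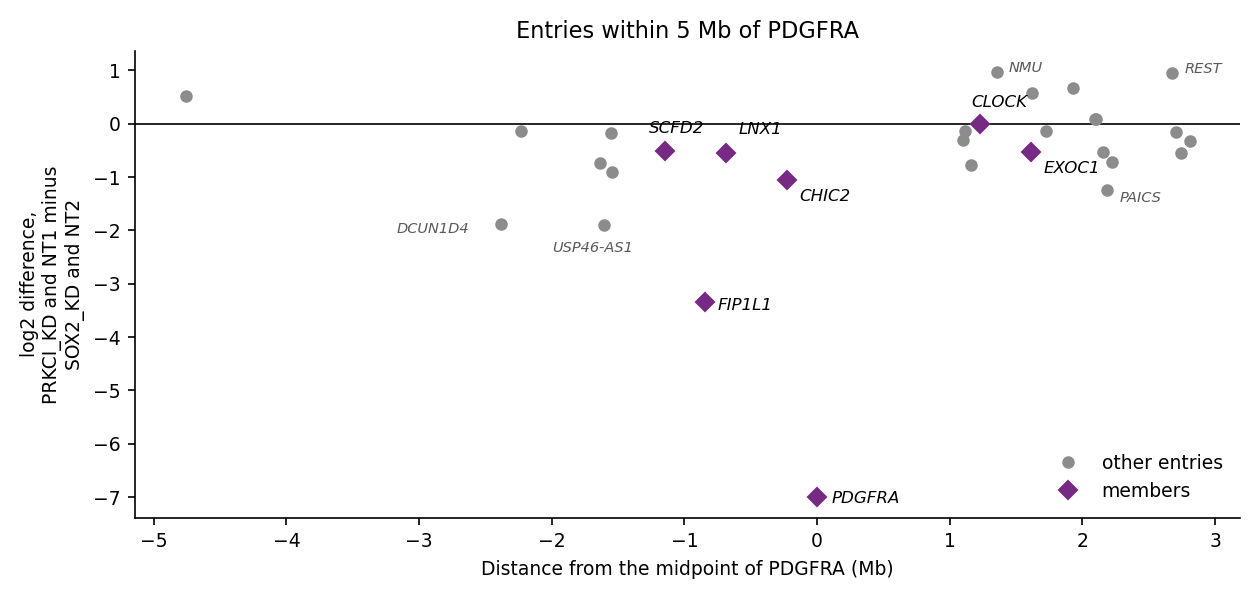
Log2 difference of the PRKCI pair minus the SOX2 pair for every placed entry tested within 5 Mb of PDGFRA, against its distance in Mb; diamonds are members and circles other entries. PDGFRA at -6.99 and FIP1L1 at -3.33 stand far below the rest, which lie between -1.90 and 0.97.

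Along the whole chromosome, the 6 entries that are not members in the 5 Mb bin that holds PDGFRA had a median log2 difference of -0.83. With the 5 members in it, which were chosen on this difference, the median was -0.91 over 11 entries. The next bin towards the short arm was at 1.02 and the next one away from it at -0.15, and the median over 521 entries of chromosome 4 was 0.19. Expression does not measure copy number, which was not analysed here.

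**Figure D4:**
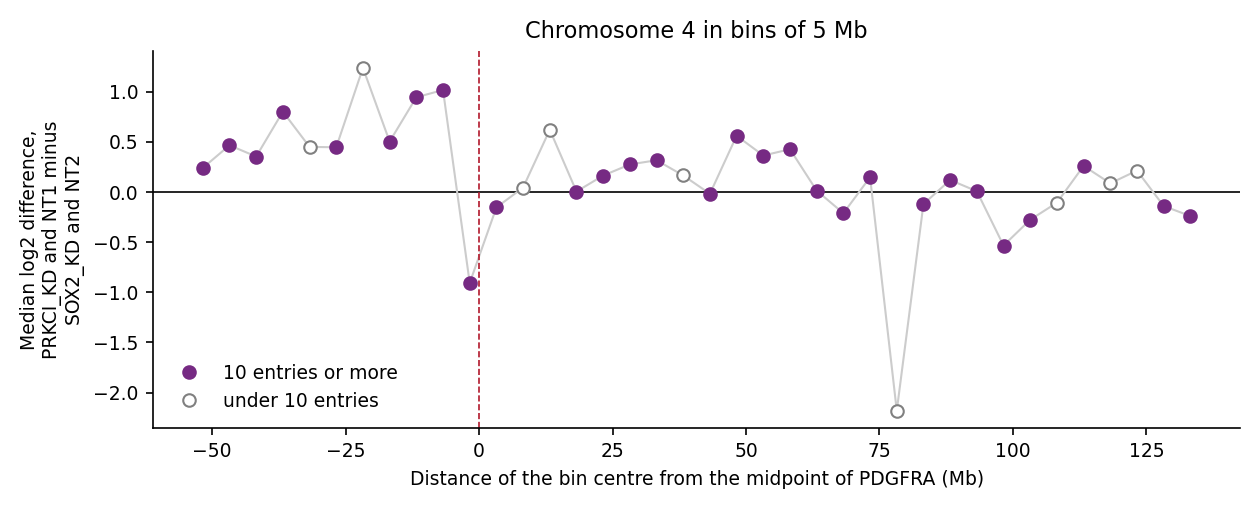
Median log2 difference of the PRKCI pair minus the SOX2 pair in 5 Mb bins of chromosome 4, against the distance of the bin centre from PDGFRA; open points are bins of under 10 entries. The bin of PDGFRA is at -0.91, with 5 of its 11 entries being members chosen on this difference.

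The other genes of PDGF signalling were read from a fixed list. Of 7 PDGF ligands and receptors, 6 were tested. Against NT2, PDGFC and PDGFB, genes of ligands of PDGFRA, fell in SOX2_KD and none rose. Of all entries, 4.62% were lower and 3.56% higher. PDGFRA fell too, but it was chosen on its level in the SOX2 pair and entered the test only through that pair. PDGFC was at 52.7, 61.1 and 58.1 RPKM in SOX2_KD and 70.6, 74.4 and 76.5 RPKM in NT2 (log2 -0.36, adjusted p = 0.00837), and PDGFB at 36.9, 33.1 and 33.2 RPKM in SOX2_KD and 48.6, 44.8 and 42.8 RPKM in NT2 (log2 -0.39, adjusted p = 0.0153). For PDGFRA, PDGFC and PDGFB the groups did not overlap, but the share of all entries that separate in this way was not counted. PDGFA was at 2.90 RPKM in SOX2_KD and 2.74 RPKM in NT2 and was not called.

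In PRKCI_KD against NT1, PDGFB rose, with 4.79 RPKM in PRKCI_KD and 1.70 RPKM in NT1 (adjusted p = 1.59e-06). PDGFC, PDGFD and PDGFRL fell, with log2 differences of -0.40, -0.79 and -0.46, so that 66.7% of the list was called, beside 45.1% of all entries. The responses of PDGFB differed between the knockdowns by 1.49 (SE 0.11, adjusted p = 7.45e-06). PDGFRB, the beta receptor, stayed at or below 0.115 RPKM in every group, so the PRKCI pair had little of either receptor. With the chosen gene PDGFRA included, the list's median log2 difference was -0.22 in PRKCI_KD and -0.17 in SOX2_KD. The medians over all entries were -0.036 and -0.016.

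**Figure D5:**
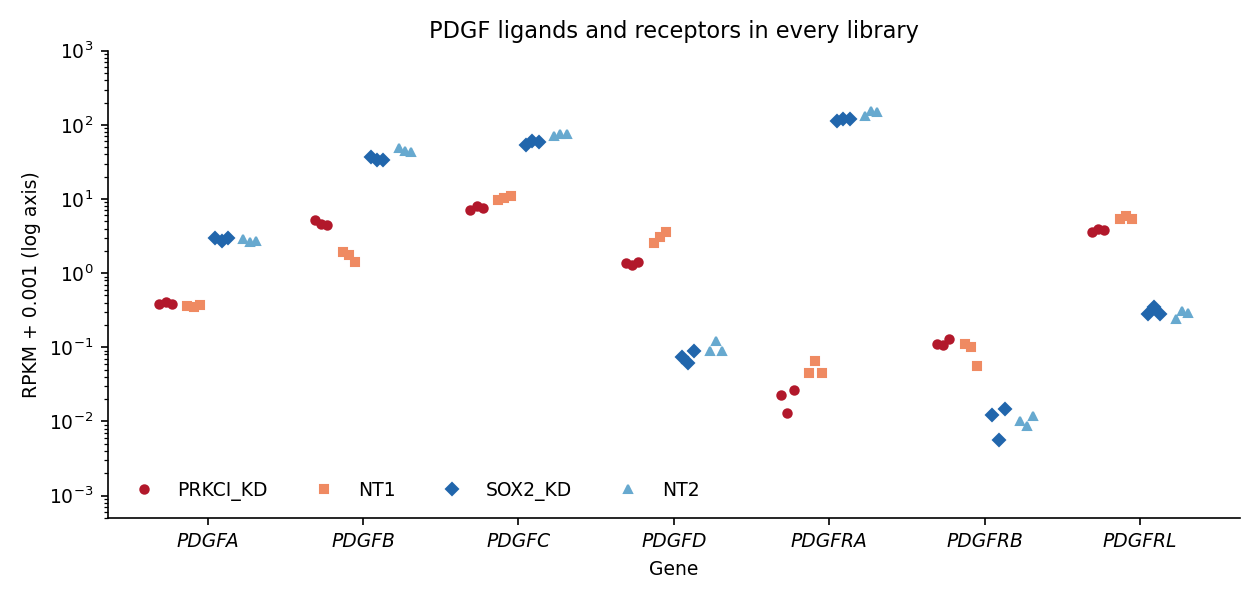
RPKM plus 0.001, on a log axis, of 4 PDGF ligand genes, both PDGF receptor genes and the receptor-like PDGFRL in each of the 12 libraries. PDGFRA, PDGFC and PDGFB were high in the SOX2 pair and lower in SOX2_KD than in NT2, and PDGFD and PDGFRL were higher in the PRKCI pair.

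Of 26 tested signalling proteins downstream of PDGF receptors, 5 rose and 5 fell in PRKCI_KD, and 2 rose and 2 fell in SOX2_KD. That is 38.5% of the list in PRKCI_KD, beside 45.1% of all entries, and 15.4% in SOX2_KD, beside 8.18%. SHC1, an adaptor of receptor kinases, rose in both, by 0.49 in PRKCI_KD (adjusted p = 6.47e-05) and 0.34 in SOX2_KD (adjusted p = 0.00756). The adaptor GRB7 rose in SOX2_KD (0.34, adjusted p = 0.0171), while GRB10 (-0.28, adjusted p = 0.00234) and GRB2 (-0.19, adjusted p = 0.0141) fell there. PIK3R1, the regulatory subunit of PI3-kinase, and PLCG1, a phospholipase, fell in PRKCI_KD, by 0.63 and 0.41 on the log2 scale.

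Among 11 ligands and co-receptors of KIT and the VEGF receptors, 5 rose and 3 fell in PRKCI_KD, or 72.7% beside 45.1% of all entries, and 1 rose in SOX2_KD, or 9.09% beside 8.18%. VEGFA, the ligand of KDR, was at 16.5 RPKM in PRKCI_KD and 1.85 RPKM in NT1 (log2 2.62, adjusted p = 4.19e-11), in libraries where KDR had at most 21 reads. NRP1, a co-receptor of VEGF, was at 0.70 RPKM in PRKCI_KD and 4.32 RPKM in NT1 (log2 -1.65, adjusted p = 2.13e-09). KITLG, the ligand of KIT, fell in PRKCI_KD (-1.02, adjusted p = 2.89e-05) and rose in SOX2_KD (0.50, adjusted p = 0.0215), and its responses differed by -1.52 (adjusted p = 6.31e-05). Of the 8 kinases of the PDGF and VEGF receptor classes, only PDGFRA, FLT3 and FLT4 were tested, and neither FLT3 nor FLT4 was called within a pair. Between the pairs, FLT4 (-2.48) and FLT3 (-0.48) were also lower in the PRKCI pair, as were 39.2% of all entries.

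The lists for FIP1L1, EXOC1, SCFD2, LNX1 and CHIC2 each had a share called in PRKCI_KD below the 45.1% of all entries. In SOX2_KD the share was at most 11.1%, beside 8.18%. In the list of 20 cleavage and polyadenylation factors, 1 rose and 7 fell in PRKCI_KD. In SOX2_KD, CSTF2 fell, as did the FIP1L1 entry, which can include PDGFRA sequence. CSTF2, which binds the sequence downstream of the cleavage site, fell in both, with log2 differences of -0.86 in PRKCI_KD and -0.25 in SOX2_KD (adjusted p = 7.34e-08 and 0.00456). Of 9 exocyst genes, EXOC6B (-0.52) and EXOC7 (-0.57) fell in PRKCI_KD and none was called by limma in SOX2_KD, where 2 had an unadjusted p under 0.05. Of 9 genes of the Sec1 and Munc18 family, 3 fell in PRKCI_KD, VPS45 (-0.62), STXBP4 (-0.47) and VPS33A (-0.27), and SCFD2 alone was called in SOX2_KD. Of 6 LNX, NUMB and CHIC relatives, NUMB rose (0.22) and NUMBL fell (-0.33) in PRKCI_KD, and none was called by limma in SOX2_KD, where 1 had an unadjusted p under 0.05.

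Of 23 tested clock genes, 11 rose and 3 fell in PRKCI_KD while CLOCK was not called. This is 60.9% of the list, beside 45.1% of all entries, of which 18.1% were higher and 27.0% lower. PER1, a repressor of the oscillator, rose by 2.25 (adjusted p = 7.01e-08), BHLHE40 by 1.48 (adjusted p = 2.49e-09) and NFIL3 by 0.91 (adjusted p = 1.94e-07). In SOX2_KD RORA rose (0.23, adjusted p = 0.0402), and BHLHE40 (-0.25, adjusted p = 0.00927) and TEF (-0.26, adjusted p = 0.0100) fell, or 3 of the 23 beside 8.18% of all entries. The libraries have no time of day in the labels.

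The entries outside the members whose pattern over the 12 libraries was closest to that of PDGFRA were found by the root mean square difference of centred log2(RPKM + 1). They were COL5A2, a fibrillar collagen chain (0.083), ALDH1A1, a retinaldehyde dehydrogenase (0.31), S100A6, a calcium-binding protein (0.43), an entry named only by its clone (0.50) and LDOC1 (0.79). COL5A2 was at 0.592 RPKM in PRKCI_KD, 0.764 RPKM in NT1, 195 RPKM in SOX2_KD and 224 RPKM in NT2. Of the members, AC098587.1 lay at 0.77, closer than LDOC1, and FIP1L1 at 1.83, rank 64 among all other entries. This is a description over libraries that differ mainly by pair.

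PDGFRA is also a marker of mesenchymal cells, and markers of other cell types were read beside it. Of 8 fibroblast markers, none reached a mean of 1 RPKM in PRKCI_KD or NT1, and 2 did in SOX2_KD and NT2, THY1 (17.9 and 22.4 RPKM) and FAP (1.97 and 1.30 RPKM). The summed level was 0.803 to 0.960 RPKM in PRKCI_KD and 1.20 to 1.49 RPKM in NT1. It was 19.6 to 21.3 RPKM in SOX2_KD and 22.5 to 26.3 RPKM in NT2. The sums did not overlap between groups, but THY1 made up most of them in the SOX2 pair. FAP was higher in SOX2_KD than in NT2, against the order of the sums. The means of COL1A1, COL1A2, DCN, LUM and PDGFRB were lower in SOX2_KD and NT2 than in PRKCI_KD and NT1. COL3A1 was at most 0.261 RPKM, in NT1. COL1A2 was listed at 0 in SOX2_KD and NT2, DCN and LUM were at or below 0.0033 RPKM there, and PDGFRB was near 0. No endothelial (of 8), mast cell (of 5) or oligodendrocyte progenitor (of 4) marker reached 1 RPKM in any group. CD68 alone did of 4 immune markers, at 18.5 to 33.3 RPKM over the groups, as did PMEL of 5 melanocyte markers and ACTA2 of 2 smooth muscle markers. In bulk RNA, fewer cells of a type and less RNA per cell cannot be told apart, and the part of other cells in the level of PDGFRA was not tested.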

How the data were processed

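The only values used are RPKM, which the authors deposited as 1 table of genes by libraries (per the file headers). TopHat2 2.1, Bowtie 1.1.2, featureCounts and GRCh38 are named in the submitters' processing notes. The annotation, the filters and the strand setting are not given in those sources. The labels' protocols state 120 ng of RNA per library and reads of 101 bases from both ends. Read totals and lengths were recovered as whole numbers that turn the values into whole reads within 0.001. Entries with a repeated name or a date as name (7091 of 64253) were left out, and 32157 were placed on GENCODE 29.

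The test was limma 3.58.1 (R 4.3.3, trend option) applied to log2(RPKM + 1), with 4 group means over 12 libraries in a single fit. It took the 19777 entries that reached 0.5 RPKM in 3 libraries or more. There were 8 residual and 2.99 prior degrees of freedom. P-values were adjusted by Benjamini-Hochberg over all of them, with a threshold of 0.05, and every adjusted p in the text is from limma. Log2 differences of low genes understate their ratios. The lowest members were also compared by exact permutation tests (scipy 1.17.1). Scripts were tested on simulated data.

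The members, lists and tests were chosen with earlier results of these data known. Named were all members, the 5 nearest entries tested on each side, the 5 entries outside the members most like PDGFRA, up to 4 genes of each list per comparison by smallest p, and the targeted genes. Same-numbered libraries of SOX2_KD and NT2 deviated together, with correlations of 0.51, 0.24 and 0.24 between deviations from the group means. Only replicate 1 stood out, since SOX2_KD replicate 2 with NT2 replicate 3 also had 0.24. Same-numbered libraries of PRKCI_KD and NT1 did not deviate together throughout (0.49, -0.11 and 0.34). The alternatives were other pseudocounts, level filters, scalings, fits, a replicate block and leaving out each library.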

Additional observations from a re-analysis of the deposited data

Results flagged for a closer look

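For 2 of the 6 members expressed in both pairs, the response in PRKCI_KD differed from that in SOX2_KD by the test of the difference itself (limma, 3 libraries per group). FIP1L1 differed by 0.37 on the log2 scale (adjusted p = 0.00379), with all PRKCI_KD libraries above NT1 and all SOX2_KD libraries below NT2. CHIC2 differed by 0.31 (adjusted p = 0.0377, limma), with the same arrangement of libraries. How many of all entries have this arrangement was not counted. The FIP1L1 entry can include PDGFRA sequence, so its responses cannot be assigned to FIP1L1 transcripts alone. The value of 0.27 for PDGFRA also passed the threshold, but it does not show a difference of the responses. The gene was near 0 RPKM in PRKCI_KD and NT1, where it cannot fall on the log2(RPKM + 1) scale, and at a pseudocount of 0.1 the value was -0.014. The share of all entries with such a difference was 26.1%. FIP1L1 kept its call under 19 of 19 settings and CHIC2 under 10 of 19.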

How the results depend on the processing

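The number of entries called in SOX2_KD against NT2 was 1618, and 3682 with the replicate number as a block or 4062 with a block within the pair alone, an alternative chosen after seeing the data. Leaving out each library gave 681 to 2230. It was 681 without SOX2_KD replicate 3, 691 without SOX2_KD replicate 2, 1075 without SOX2_KD replicate 1, 856 without NT2 replicate 2 and 903 without NT2 replicate 3. The block changed the call of AC098587.1 in the SOX2 pair and of SCFD2 in the difference of the responses (adjusted p = 0.0390). For CLOCK in the PRKCI pair, where numbers do not pair the libraries, it gave adjusted p = 0.0137. It changed no other call of a member. AC098587.1 was called in the SOX2 pair under 8 of 21 settings.

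With only the 6 libraries of the pair, the log2 difference of PDGFRA in SOX2_KD against NT2 stayed at -0.31. It was not called there (adjusted p = 0.0557, limma). PDGFRA was called in this comparison under the other 20 of 21 settings. Its difference of the responses was -0.014 at a pseudocount of 0.1, a change of sign that follows from the weight this gives to values near 0. It was 0.27 without the level filter and 0.22 after quantile normalization, neither called, and 0.23 to 0.33 when each library was left out. Its difference between the pairs was -9.93 at a pseudocount of 0.1, -4.75 at 5 and -6.92 after quantile normalization. Without the level filter, 45.1% of entries within 5 Mb were called between the pairs, beside 51.8% of all 43399 entries above 0 in at least 1 library. Where no cause is named, the cause was not tested. At a pseudocount of 0.1, PDGFRA was called lower in PRKCI_KD (-0.33, adjusted p = 0.00723), and after quantile normalization FIP1L1 (0.16, adjusted p = 0.0410) and CHIC2 (0.18, adjusted p = 0.0419) were called higher there.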
